A study of Rattus norvegicus with 24 samples.

Results

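The cell cycle and DNA replication genes are 37 genes chosen by name, and their levels were read in all 24 rat lung libraries of the series. A row was found for 36 of the 37 symbols; Cenpe, a kinetochore motor, was not analysed here. All 36 passed the filter on low counts, which left 11426 of 16881 gene symbols for testing. The study gave rats whole-cigarette smoke condensate (WCSC), the material collected from burning cigarettes, more than once and asked about lung damage. There were lungs given WCSC at 5, 10 or 20 mg/mL and control lungs, each at 6 days and at 12 days, with 3 libraries in each of 8 groups. Every sample is labelled as lung of WT genotype. Strain, age, sex, the route of exposure and what the controls received are not stated in the labels. RNA was counted with a Lexogen QuantSeq kit, which reads the ends of polyadenylated transcripts in the whole piece of lung. In such bulk RNA, fewer cells of a type and less RNA per cell cannot be told apart. No label ties a replicate to an animal of its own, so p-values measure the spread between these samples, which may be technical. Where lungs are counted below, each is a library and not necessarily a separate animal.

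Total counts per library were between 4795667 and 11109713, with a median of 6840815. Levels are given as CPM, counts relative to the library's scaled total, and are compared between libraries and never between genes. Lung markers were abundant in every library, with a summed level of 6 alveolar type II cell markers of at least 7244 CPM. Replicate 3 of 20 mg/mL at 6 days stood apart in the cell cycle genes, as described below, and had the highest summed level of macrophage markers of the 24 libraries. Replicate 2 of 20 mg/mL at 12 days stood apart in tissue content: 7 heart muscle markers summed to 2989 CPM there, against at most 201 CPM in every other library, and its alveolar type II markers had the lowest sum. The main counts and medians, and the genes that moved most, are given with and without these libraries.

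A dividing cell passes through a phase in which DNA is copied and a phase in which the copies are pulled apart. Genes of the replication fork and of nucleotide supply serve the first, and most are transcribed ahead of it. Cyclins, mitotic kinases, kinetochore proteins and spindle motors serve the second and are transcribed late in the cycle. In the resting adult lung few cells divide, and these genes are widely read as marks of dividing cells, Mki67 above all. Replication genes such as Pcna also serve DNA repair, so their RNA is less tightly tied to division.

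Promoters of mitotic genes are known for CCAAT boxes and a short element next to them, and those of replication genes for E2F-type sites. The promoters of 4 mitotic and 2 replication genes are shown because the results below are ordered by these roles. RefSeq promoters of the GRCr8 assembly, 250 bases before to 50 bases after each gene's start, were matched by symbol for 30 of the 37 genes. Each line gives the 130 bases just before the start, 5′ to 3′ on the gene's own strand. Capitals mark CCAAT, the pair TTTGAA and TTTAAA (the letters of the cell cycle genes homology region, known from human and mouse promoters) and GGCGC (a core found in some E2F-type sites), each searched on both strands. Ccnb1 lies at chr2:33655226-33655355 (minus strand), Ccnb2 at chr8:79981659-79981788 (minus), Plk1 at chr1:186147528-186147657 (plus), Cdc20 at chr5:137255800-137255929 (minus), Mcm2 at chr4:122918095-122918224 (minus) and Pcna at chr3:139955821-139955950 (minus).
Ccnb1: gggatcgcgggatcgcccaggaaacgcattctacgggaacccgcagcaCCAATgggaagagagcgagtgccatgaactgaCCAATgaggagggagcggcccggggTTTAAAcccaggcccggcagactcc
Ccnb2: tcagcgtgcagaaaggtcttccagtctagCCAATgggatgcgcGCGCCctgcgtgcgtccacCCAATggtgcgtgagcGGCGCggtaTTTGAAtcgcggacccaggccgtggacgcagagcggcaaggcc
Plk1: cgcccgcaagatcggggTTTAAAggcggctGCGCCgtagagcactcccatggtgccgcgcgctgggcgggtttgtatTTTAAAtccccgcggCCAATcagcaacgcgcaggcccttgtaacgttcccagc
Cdc20: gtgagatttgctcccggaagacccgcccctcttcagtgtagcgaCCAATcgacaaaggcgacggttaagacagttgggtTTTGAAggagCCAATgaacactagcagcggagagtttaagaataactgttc
Mcm2: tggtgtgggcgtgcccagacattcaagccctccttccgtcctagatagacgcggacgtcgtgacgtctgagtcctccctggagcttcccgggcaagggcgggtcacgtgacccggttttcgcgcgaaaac
Pcna: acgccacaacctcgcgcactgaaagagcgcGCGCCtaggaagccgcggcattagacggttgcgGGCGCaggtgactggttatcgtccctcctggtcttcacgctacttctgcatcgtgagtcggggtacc
CCAAT was present in 24 of the 30 matched promoters (80.0%), against 37.7% of all 27457 promoters of the same length. GGCGC was present in 21 (70.0%), against 36.2% of all promoters. TTTGAA or TTTAAA was present in 22 (73.3%), against 27.9% of all promoters, and both CCAAT and one of this pair in 17 (56.7%), against 11.1%. Split by role, a grouping made after the expression values had been seen, TTTGAA or TTTAAA was present in 20 of 21 mitotic genes (95.2%) and in 2 of 9 replication, nucleotide and G1/S genes (22.2%). The mitotic gene without it was Stmn1. In the lines above, Ccnb1 has CCAAT at −82 and −50 and TTTAAA at −25, counted in bases from the start to the first base of the motif, and Cdc20 has CCAAT at −86 and −41 on either side of TTTGAA at −51. The Mcm2 line has none of the motifs searched, its TTTGAA lying farther out at −215 and −175, and the Pcna line has GGCGC only. E2F-type sites without GGCGC were not searched, so the Mcm2 line is not shown to lack such a site. The motifs did not overlap one another in these lines. A match describes the letters of the window and says nothing of which factor binds there.

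Across the 24 libraries 1 library led in the levels of these genes. The parts of the variation between and within groups were not computed. Replicate 3 of 20 mg/mL at 6 days had the highest level of 19 of the 36 genes and was among the 3 highest for 25. It also had the most detected genes of the 24 libraries at equal depth, 12474. How often it ranked first over all genes tested was not computed. Its level was 2.07 times the median of the other 23 libraries for the median gene, with a range of 0.694 to 5.88 times. This library was singled out by these same genes, and the lists were chosen with earlier results of these data known. Within that limit, the excess differed by role. It was 2.34 times for the chromosome and kinetochore genes (highest library for 4 of 4), 2.53 times for the checkpoint genes (3 of 4), 2.56 times for the mitotic cyclins and kinases (4 of 8) and 2.11 times for the spindle genes (4 of 7). It was 1.01 times for the replication fork (2 of 7) and 1.01 times for nucleotide supply (1 of 3), both as medians. Replicate 1 of the same group was among the 3 highest libraries for 12 genes. Replicate 2 of that group was not: it lay above the gene's own median for 9 of 36 genes, and its median deviation from that level was -0.28 on the log2 scale. At 12 days, replicate 2 of 20 mg/mL was among the 3 highest libraries for 13 genes, and replicate 1 of 12-day control was the lowest library for 8.

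**Figure D1:**
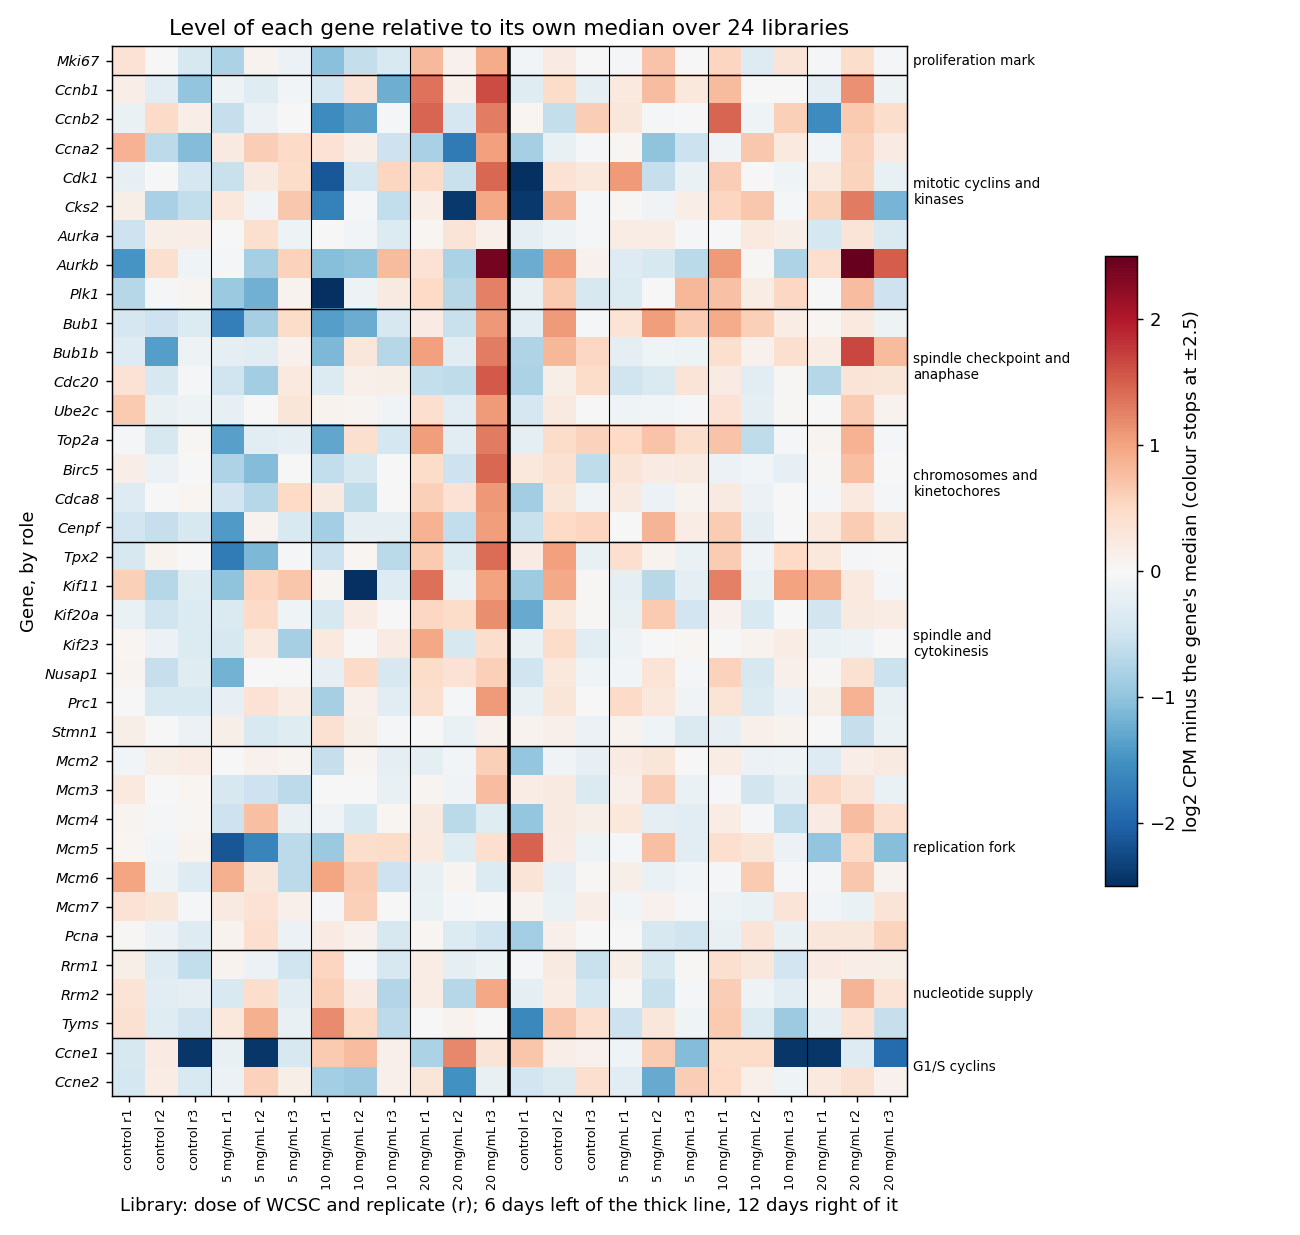
Colour shows log2 CPM (prior count 2) minus the gene's own median over 24 libraries, for 36 genes in rows grouped by role and 24 libraries in columns (r, replicate), with control at the low end of each dose series. In the 20 mg/mL group at 6 days the column of replicate 3 is red through the mitotic roles other than Aurka and Stmn1. Its replication and nucleotide rows are mixed, from 0.96 for Rrm2 and 0.78 for Mcm3 to -0.34 for Mcm6 and -0.51 for Pcna. The column of replicate 2 of that group is mostly blue.

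Mki67, the nuclear antigen used as the common mark of dividing cells, gave a scale for how the other genes varied together. Its level was between 11.3 and 44.6 CPM over the 24 libraries. Of the other 35 genes, 16 correlated positively with it and 0 negatively at an adjusted permutation p under 0.05 (two-sided, 100000 resamples, adjusted over the 35 genes); the median Pearson r was 0.413 and the range -0.386 to 0.799. Top2a, which untangles DNA strands, had the highest r at 0.799 (rho 0.674), and Cenpf, a kinetochore protein, followed at 0.791 (rho 0.684), both with a permutation p of 1e-05, the smallest these resamples can give, an adjusted p of 0.000175 for r, and permutation p = 0.00036 and 0.00042 for rho. Ccnb1 (r 0.739, rho 0.708), Prc1 (r 0.728, rho 0.683) and Bub1 (r 0.719, rho 0.561) came next. By role, the count was 3 of 4 chromosome genes, 3 of 4 checkpoint genes, 5 of 7 spindle genes and 4 of 8 mitotic cyclins and kinases, against 1 of 7 replication fork genes (Mcm3, r 0.496), 0 of 3 nucleotide genes and 0 of 2 G1/S cyclins. Stmn1, a microtubule destabiliser also made by cells that are not dividing, had r -0.324, and Mcm6 had the lowest r at -0.386. By Spearman's rho 10 genes passed. The share of all genes tested that correlate with Mki67 was not computed, so these counts are not shown to be particular to the set.

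The relation was weaker without the extremes. Leaving out the 2 libraries farthest from the median of Mki67, replicate 3 of 20 mg/mL and replicate 1 of 10 mg/mL at 6 days, left 10 genes past the threshold, with a median r of 0.338. Top2a then had r 0.692, Cenpf 0.734 and Ccnb1 0.691, whereas Cdk1, the mitotic kinase, had 0.202 (0.492 with all libraries), Plk1 had 0.357 (0.628) and Birc5 had 0.436 (0.605). After subtracting each group's mean, so that only replicates of a group were compared, 10 genes passed as well, with a median r of 0.423. These permutations ran over all 24 libraries and did not allow for the subtracted means, so this count may be too high.

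**Figure D2:**
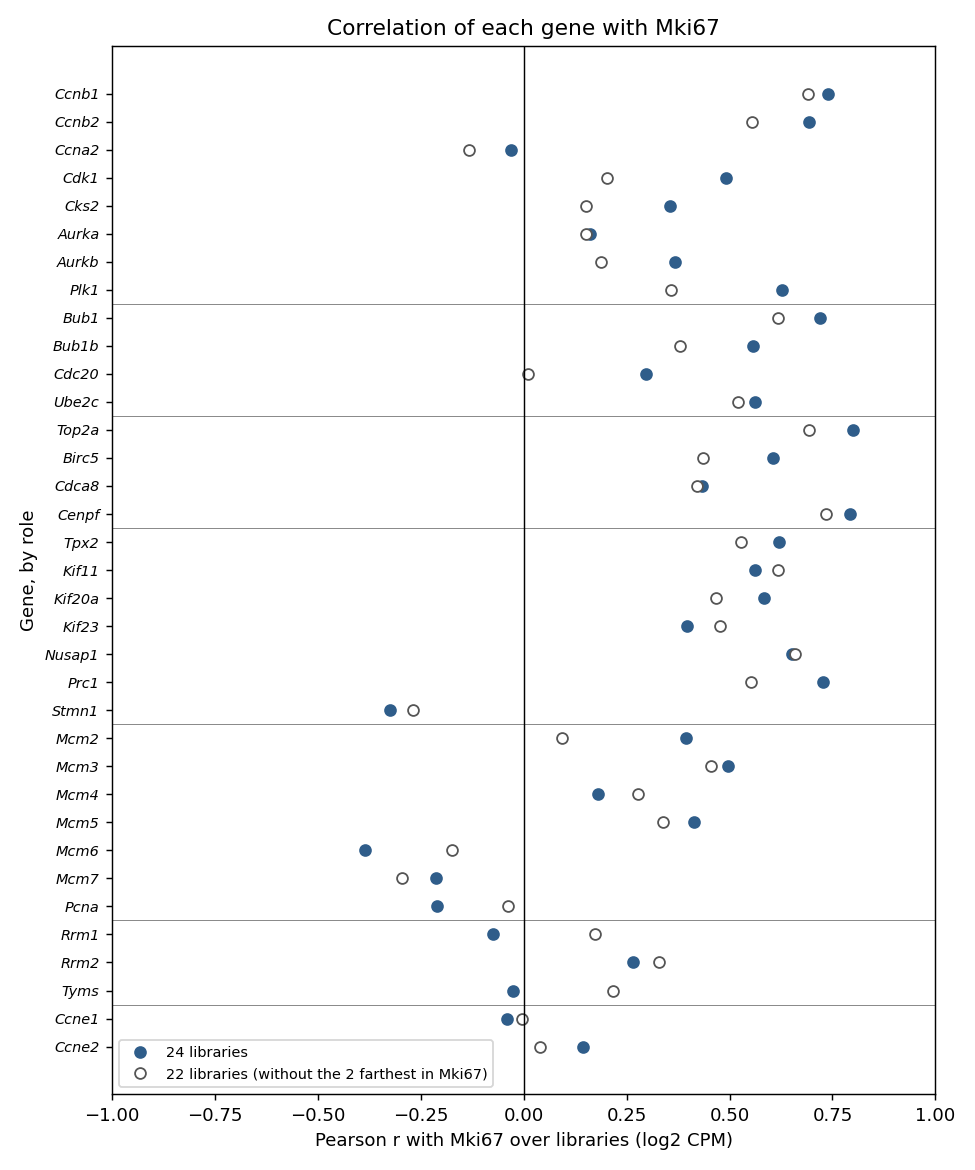
Pearson r of each of 35 genes with Mki67 (log2 CPM), by role, over all 24 libraries (filled) and over the 22 left without the 2 libraries farthest from the median of Mki67 (open). Chromosome and spindle genes other than Stmn1 lie to the right in both, with Top2a at 0.799 and 0.692, and the replication, nucleotide and G1/S genes scatter around 0.

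Lungs given 20 mg/mL had, at 6 days, higher mean levels of most mitotic genes than 6-day controls, Ccna2 and Stmn1 apart, and mean levels of the replication genes close to them, but no gene passed the adjusted threshold and the difference leaned on 1 library. Of the 36 genes, 29 had a positive log2 fold change, against 49.6% of all genes tested, and the median was 0.61, against -0.00 over all genes. By edgeR's quasi-likelihood test 0 of the 36 genes had an adjusted p under 0.05, as did 0% of all genes, and DESeq2 and limma voom also called 0 of them, beside 0.0263% and 0.0175% of all genes. At an unadjusted p under 0.05, 9 of 36 were higher (25%), against 2.07% of all genes, and 0 were lower, against 2%; DESeq2 gave 9 higher, beside 543 of 11426 genes in either direction, and limma voom 8, beside 1286. These 9 were Ccnb1, Kif20a, Cenpf, Prc1, Bub1b, Cdca8, Top2a, Mki67 and Nusap1, all of them mitotic genes or the division mark.

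The cyclins and kinases come first, since cyclin B with Cdk1 forms the kinase that starts mitosis. Ccnb1, cyclin B1, had 19.1, 7.98 and 23.1 CPM in lungs exposed to 20 mg/mL, against 8.18, 5.98 and 3.53 CPM in 6-day control lungs. Replicates 1 and 3 lay above all controls, and replicate 2 lay among them. The means were 16.7 ± 7.86 and 5.90 ± 2.33 CPM (SD, n = 3 each), and the log2 fold change was 1.50 ± 0.47 (SE), with an unadjusted p of 0.00438 by edgeR and an adjusted p of 0.9996. Cdk1 had 9.36, 4.47 and 18.5 CPM, against 5.75, 6.65 and 4.94 CPM in controls, with the exposed lungs on both sides of the controls (0.90 ± 0.66). Plk1, a kinase of mitotic entry and spindle assembly, had 13.4, 5.68 and 23.0 CPM, against 5.63, 9.24 and 9.87 CPM, again with replicate 2 among the controls (0.77 ± 0.58). Of the rest of this role, Ccnb2, Cks2, Aurka and Aurkb had positive log2 fold changes of 0.20 to 1.58, and Ccna2, cyclin A2, stood at -0.01. The 8 genes had a median of 0.81, and 1 of 8 was higher at an unadjusted p under 0.05.

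The checkpoint genes hold back or release the separation of the chromosomes. Cdc20, which activates the anaphase-promoting complex, had 9.97, 9.67 and 44.6 CPM in lungs exposed to 20 mg/mL, against 19.6, 11.4 and 15.0 CPM in controls. Only replicate 3 was above the controls, and the other 2 exposed lungs were below all 3 of them; the log2 fold change was 0.49 ± 0.47. Bub1b, a checkpoint kinase-like protein, had 6.31, 2.42 and 7.55 CPM, against 2.30, 0.951 and 2.68 CPM, with replicate 2 overlapping the controls (1.44 ± 0.57, unadjusted p = 0.0192, adjusted p = 0.9996 by edgeR). Bub1 and Ube2c, the checkpoint kinase and the ubiquitin-conjugating enzyme of anaphase, had 0.88 ± 0.55 and 0.34 ± 0.29.

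Genes of chromosome structure and kinetochores showed the same pair of high replicates. Top2a had 44.4, 17.5 and 52.8 CPM in lungs exposed to 20 mg/mL, against 20.7, 16.0 and 21.9 CPM in controls (0.97 ± 0.43). Cenpf had 74.5, 26.2 and 83.4 CPM, against 29.2, 27.0 and 30.8 CPM (1.08 ± 0.39). In both genes replicates 1 and 3 lay above the controls, and replicate 2 was within or below their range. Birc5, survivin, a subunit of the chromosomal passenger complex, had 11.2, 5.56 and 22.5 CPM, against 9.08, 7.33 and 8.18 CPM (0.67 ± 0.41). Cdca8, borealin of the same complex, had 16.7, 14.1 and 23.4 CPM, against 8.69, 11.0 and 11.3 CPM, and here all 3 exposed lungs were above all 3 controls (0.81 ± 0.34, unadjusted p = 0.0271, adjusted p = 0.9996 by edgeR). All 4 measured genes of this role had positive log2 fold changes, with a median of 0.89.

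Spindle and cytokinesis genes followed them. Kif20a, a motor of cytokinesis, had 17.3, 16.7 and 27.2 CPM in lungs exposed to 20 mg/mL, against 10.7, 8.42 and 9.45 CPM in controls. Every exposed lung was above every control, and the log2 fold change was 1.10 ± 0.37 (unadjusted p = 0.00717, adjusted p = 0.9996 by edgeR). Nusap1, a spindle microtubule protein, also did not overlap, with 18.3, 17.2 and 20.2 CPM, against 13.9, 8.83 and 10.7 CPM (0.73 ± 0.35). Kif20a, Nusap1 and Cdca8 were the 3 of 36 genes whose groups did not overlap with the exposed lungs higher, beside 4.07% of all genes, and 0 of 36 lay wholly lower, beside 4.67%. Kif11, the motor that parts the spindle poles, had 7.93, 2.54 and 6.01 CPM, against 4.48, 1.63 and 2.26 CPM, with overlap (0.96 ± 0.72). Prc1, a microtubule bundler of the midzone, had 38.2, 27.8 and 60.5 CPM, against 28.6, 22.0 and 21.9 CPM (0.80 ± 0.31). Tpx2 and Kif23 had 0.85 ± 0.45 and 0.58 ± 0.32. Stmn1 stood apart from its role with 137, 122 and 149 CPM, against 152, 139.9 and 124 CPM, groups that overlapped throughout (-0.02 ± 0.19).

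**Figure D3:**
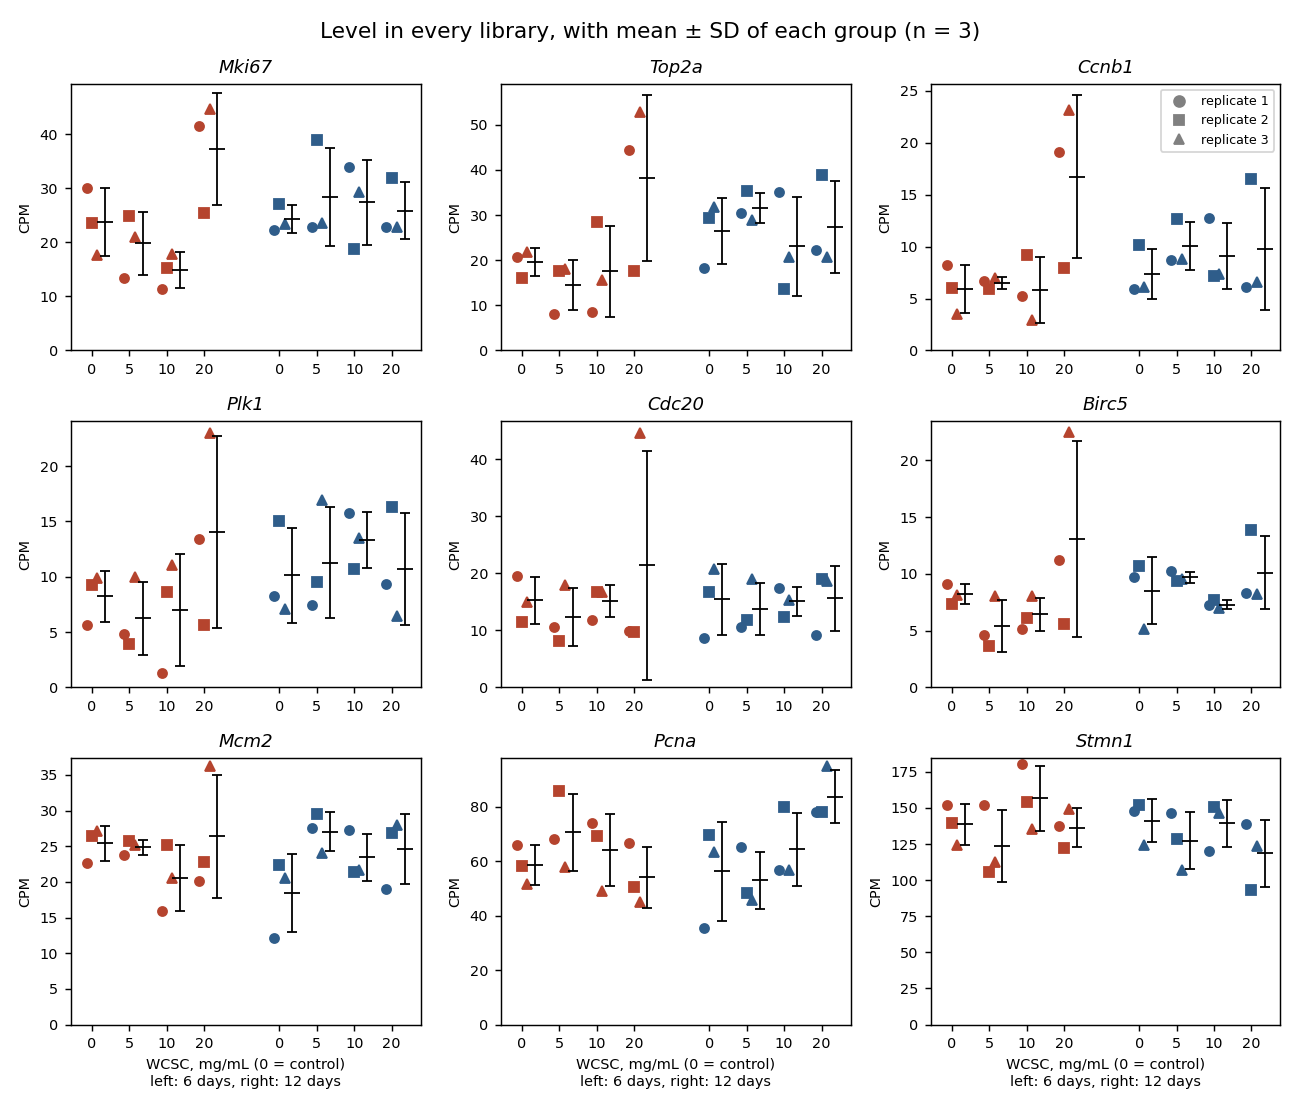
CPM of 9 genes in each library (symbols mark the replicate), with mean ± SD of each group of 3, against dose of WCSC in mg/mL (0 is control), 6 days on the left of each panel and 12 days on the right. At 20 mg/mL and 6 days replicates 1 and 3 of Mki67, Top2a and Ccnb1 lie above the rest of that day, replicate 3 alone does so for Cdc20, and Stmn1 and Pcna show no such split.

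Replication genes lay near control. Mcm2, a subunit of the helicase that opens DNA for copying, had 20.1, 22.8 and 36.2 CPM in lungs exposed to 20 mg/mL, against 22.6, 26.5 and 27.1 CPM in controls. Replicate 3 was the highest of the 6, replicate 2 lay within the controls and replicate 1 below them (0.06 ± 0.25, with a 95% interval of -0.47 to 0.59). Mcm5, a further subunit, had 2.24, 1.45 and 2.56 CPM, against 1.92, 1.77 and 1.97 CPM (0.14 ± 0.69). Pcna, the clamp that holds the polymerase on DNA, had 66.5, 50.5 and 45.1 CPM, against 66.0, 58.3 and 51.5 CPM, with an interval of -0.63 to 0.39. For both genes the groups overlapped. Over the 7 fork genes the log2 fold changes were between -0.44 and 0.21, 3 of 7 were positive, and the median was -0.12.

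Nucleotide supply lay between in its median, and the G1/S cyclins had log2 fold changes of opposite sign. Rrm2, the regulated subunit of ribonucleotide reductase, had 8.54, 4.47 and 14.8 CPM in lungs exposed to 20 mg/mL, against 9.59, 6.11 and 6.35 CPM in controls (0.34 ± 0.43). Tyms, thymidylate synthase, had 3.05, 3.26 and 3.07 CPM, against 4.09, 2.44 and 2.12 CPM (0.12 ± 0.61). Both overlapped the controls, and Rrm1 did too (0.18 ± 0.28). Ccne1, cyclin E1, had 0.61, 3.26 and 1.66 CPM, against 0.895, 1.49 and 0 CPM, values near the limit of counting (1.21 ± 1.15), and Ccne2 had -0.11 ± 0.43. The 3 nucleotide genes had a median log2 fold change of 0.18.

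Much of the 20 mg/mL difference at 6 days rested on replicate 3. Without it, 1 of 36 genes (Ccnb1) was higher at an unadjusted p under 0.05 (2.78%), against 2.07% of all genes, 22 of 36 had a positive log2 fold change, and the median was 0.21. The chromosome genes still had a median of 0.61 and the spindle genes 0.58, whereas the mitotic cyclins and kinases had 0.21, the checkpoint genes 0.12, and the replication fork -0.19 with 0 of 7 positive. Kif20a stood at 0.83 ± 0.40 and Cdca8 at 0.58 ± 0.37 without it, and Cdc20 at -0.64 ± 0.42 and Ccna2 at -1.43 ± 0.71. Cdk1 stood at 0.24 ± 0.72, Plk1 at 0.20 ± 0.63, Aurkb at 0.09 ± 1.02, Birc5 at 0.02 ± 0.41 and Ube2c at -0.07 ± 0.30 without it. Of the replication and nucleotide genes, Mcm2 stood at -0.24 ± 0.27, Mcm3 at -0.11 ± 0.28 and Rrm2 at -0.19 ± 0.46. Other single libraries moved the count as well: 14 of 36 were higher without exposed replicate 2, against 2.30% of all genes, and 4 of 36 without control replicate 2, against 1.56%. It was 17 of 36 without the 8 libraries that had the fewest detected genes, exposed replicate 2 and control replicate 1 among them, against 4.68% of all genes, with a median of 0.97. Without the 3 libraries with the most heart muscle counts, exposed replicate 3 among them, it was 1 of 36, against 2.24%.

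**Figure D4:**
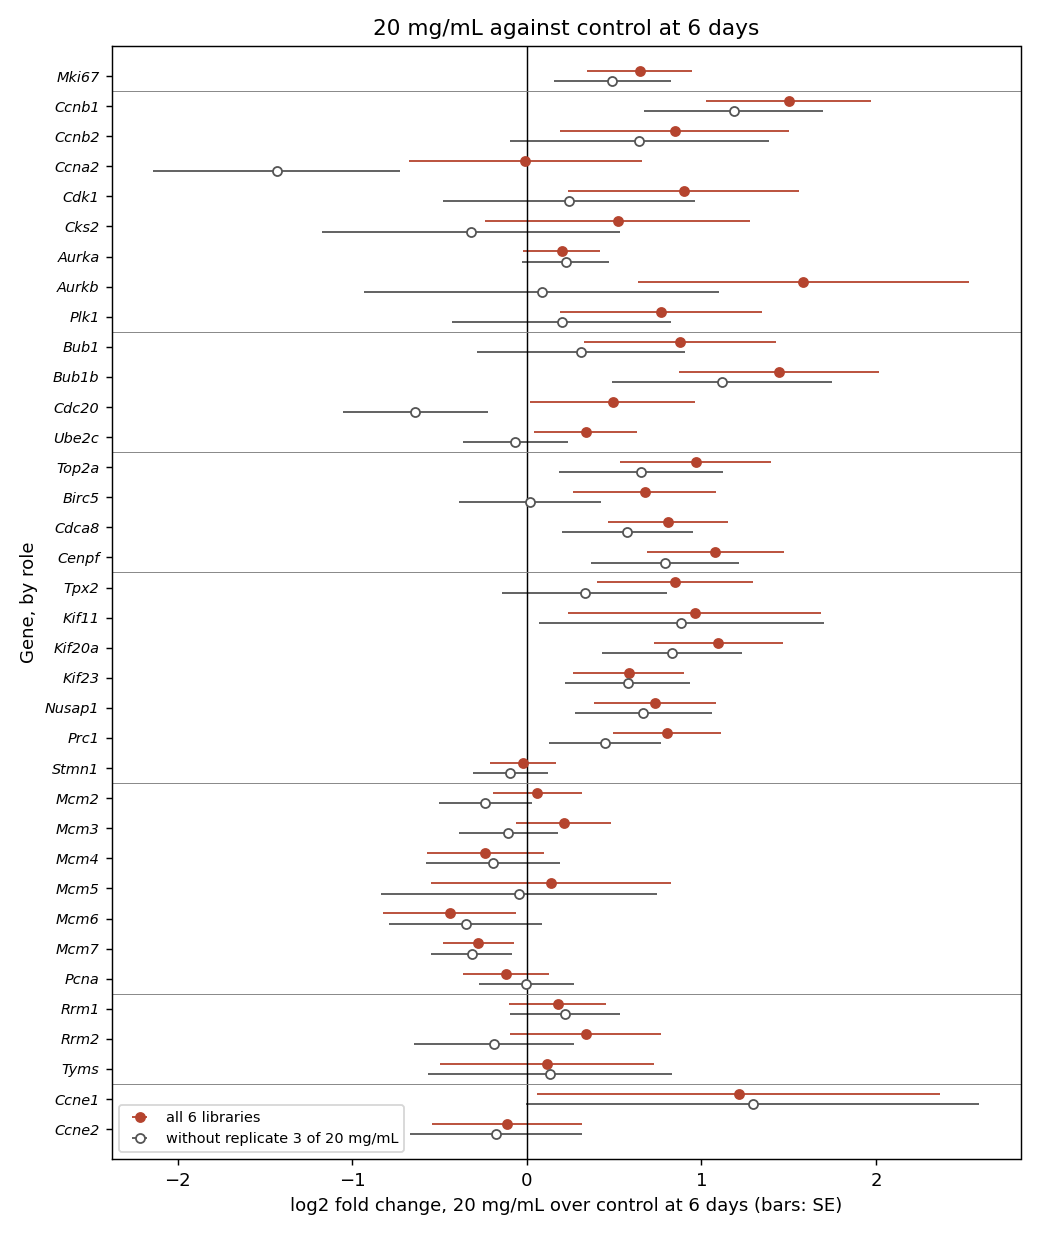
Log2 fold change (points) with its SE (bars) of 36 genes in lungs exposed to 20 mg/mL over control lungs at 6 days, by role from top to bottom, with all 6 libraries (filled) and without exposed replicate 3 (open). Ccnb1 moved to 1.19 and Kif20a to 0.83 without that replicate. Cdc20 passed to the left of 0, at -0.64, and Ccna2 moved to -1.43, against -0.01 with all libraries.

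Markers of other cells also differed between these libraries, but not in step with the cell cycle genes throughout. At 20 mg/mL and 6 days, 11 macrophage markers summed to 809, 952 and 1457 CPM in exposed lungs, against 738, 562 and 703 CPM in controls, with the exposed lungs wholly above. Replicate 2 ranked 2 of 24 in that sum, although it lay above the gene's own median for only 9 of 36 cell cycle genes. Replicate 1 had a lower sum than replicate 2, but was among the 3 highest libraries for 12 of these genes. Replicate 3 was the highest of 24 libraries in the macrophage sum, with 9 of 11 markers above their own median and Marco at 0 in every library. Gpnmb alone made up 743 CPM of its sum, against a median of 180 CPM for that gene over the 24 libraries. Mrc1 was below its median there, at 85.7 against 129 CPM. The sum without Gpnmb was not computed. Its T and NK cell markers summed to 187 CPM, the highest of 24 (8 of 11 above their median), over a range of 136 to 187 CPM in the exposed group and 95.4 to 167 CPM in controls, with no marker of that list at 0 in all libraries. Of 5 thymocyte markers 3 were above their median there, and Rag2 was at 0 in every library. Its 7 heart muscle markers, all above their median, summed to 201 CPM, against a median of 66.5 CPM in the other libraries. Endothelial and immature red cell markers had their second lowest sums there, at 1172 and 129 CPM, with 0 of 6 and 0 of 7 markers above their median. The part these cells had in the cell cycle genes was not tested.

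Lower doses at 6 days showed no shift of the set. At 5 mg/mL, 18 of 36 genes had a positive log2 fold change (median 0.00), against 49.1% of all genes, and 0 passed the adjusted threshold by edgeR, DESeq2 or limma voom, beside 0%, 0.0175% and 0% of all genes. At an unadjusted p under 0.05, 2 of 36 were lower by edgeR, against 2.18% of all genes, and 0 were higher, against 2.51%. DESeq2 had 2 lower, beside 638 of 11426 genes in either direction, and limma voom 2 lower and 1 higher, beside 2247. The 2 genes lower by edgeR were helicase subunits. Mcm5 had 0.197, 0.392 and 1.07 CPM in lungs exposed to 5 mg/mL, against 1.92, 1.77 and 1.97 CPM in controls, and Mcm3 had 11.7, 10.9 and 9.81 CPM, against 18.5, 15.6 and 16.2 CPM. Neither overlapped, and these were the 2 genes of 36 wholly below controls, beside 4.13% of all genes, while 0 lay wholly above, beside 4.17%. Mcm5 stood at -1.82 ± 0.75 (unadjusted p = 0.0241) and Mcm3 at -0.64 ± 0.27 (0.03), both with an adjusted p of 0.896 by edgeR. Exposed replicates 1 and 2, the lowest in Mcm5, were among the 8 libraries that had the fewest detected genes. Over 10 alternatives Mcm5 stood between -2.20 and -0.80, and Mcm3 between -0.71 and -0.54. The Mcm proteins form 1 ring of 6 subunits, and the other 4 had no such difference, with Mcm2 at 23.7, 25.8 and 25.1 CPM, against 22.6, 26.5 and 27.1 CPM.

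At 10 mg/mL and 6 days, 16 of 36 genes had a positive log2 fold change (median -0.02), against 50.1% of all genes, and 0 passed the adjusted threshold by edgeR, DESeq2 or limma voom, beside 0%, 0% and 0.0438% of all genes. By edgeR, Mki67 alone was lower at an unadjusted p under 0.05 (1 of 36, against 1.23% of all genes) and 0 were higher, against 1.46%; DESeq2 had 1 lower, beside 359 of 11426 genes in either direction, and limma voom 1 lower and 2 higher, beside 2956. None of the 36 lay wholly above or below controls, beside 2.98% and 3.24% of all genes. Mki67 had 11.3, 15.3 and 17.9 CPM in lungs exposed to 10 mg/mL, against 30.0, 23.5 and 17.6 CPM in controls, which overlapped by a small margin (-0.68 ± 0.30, unadjusted p = 0.0354, adjusted p = 0.989 by edgeR). It stood at -0.21 without the 8 libraries that had the fewest detected genes. That fit left only exposed replicate 3 against control replicates 2 and 3. Ccnb2, cyclin B2, came next with 0.60, 0.748 and 2.25 CPM, against 2.05, 3.40 and 2.68 CPM (-1.18 ± 0.69, unadjusted p = 0.10 by edgeR). With 20 mg/mL at 41.5, 25.4 and 44.6 CPM and 5 mg/mL at 13.5, 24.8 and 21.0 CPM, the means of Mki67 ran 23.7 ± 6.21, 19.8 ± 5.79, 14.8 ± 3.32 and 37.2 ± 10.3 CPM from control through 5, 10 and 20 mg/mL (SD, n = 3 each), so that the highest dose alone was above control.

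The dose slope, the change of the log2 level for each mg/mL over control, 5, 10 and 20 mg/mL at 6 days, was positive for 30 of 36 genes, against 49.5% of all genes. By edgeR 0 of 36 passed the adjusted threshold, beside 0.00875% of all genes, and DESeq2 and limma voom called 0 of them, beside 0.0613% and 0.0175%. At an unadjusted p under 0.05 the slope was higher for 12 of 36 (33.3%), against 2.73% of all genes, and lower for 0, against 2.14%. The 12 held all 4 chromosome genes and 5 of 7 spindle genes (Kif20a, Tpx2, Nusap1, Prc1 and Kif23), together with Ccnb1, Bub1b and Mki67, and none of the 12 replication, nucleotide and G1/S genes. Ccnb1 had 0.075 ± 0.022 (SE) on the log2 scale for each mg/mL and Cenpf 0.055 ± 0.018, with unadjusted p of 0.00259 and 0.00651 and adjusted p of 0.787 and 0.908 by edgeR. Without replicate 3 of 20 mg/mL the count was 1 of 36 and the median slope 0.011, against 0.034 with all libraries; without control replicate 2 the count was 7. The slope and the 20 mg/mL comparison share their libraries and are not separate evidence.

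After 12 days the set lay close to control. In lungs exposed to 20 mg/mL, 29 of 36 genes had a positive log2 fold change, against 51.4% of all genes, with a median of 0.21. By edgeR 0 of 36 passed the adjusted threshold, beside 0% of all genes, and DESeq2 and limma voom called 0 of them, beside 0.0351% and 0.0175%. By edgeR 2 of 36 were higher at an unadjusted p under 0.05 (5.56%), against 2.35% of all genes, and 0 were lower, against 1.33%. The positive count rested on single libraries: it was 17 of 36, with a median of -0.04, without exposed replicate 2, and 18 of 36 without control replicate 1. Mki67 had 22.8, 31.9 and 22.7 CPM, against 22.3, 27.1 and 23.4 CPM in 12-day controls, with exposed replicate 2 above the control range and replicates 1 and 3 within it (0.09 ± 0.30). Ccnb1 had 6.15, 16.5 and 6.60 CPM, against 5.87, 10.1 and 6.12 CPM, and Top2a had 22.2, 39.0 and 20.8 CPM, against 18.2, 29.3 and 31.8 CPM. In both, exposed replicate 2 was the single high value.

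The 2 genes higher at 20 mg/mL and 12 days differed in kind. Aurkb, the kinase of the chromosomal passenger complex, had 3.17, 50.3 and 7.09 CPM in exposed lungs, against 0.81, 5.06 and 2.50 CPM in controls. The 50.3 CPM of replicate 2 was 21.9 times the median over 24 libraries. That library had the highest sums of 24 for heart muscle, fibroblast, club cell, and B and plasma cell markers. The log2 fold change of Aurkb was 2.84 ± 0.96 (unadjusted p = 0.00736, adjusted p = 0.998 by edgeR) and stood at 0.88 without that library. Birc5 and Cdca8 of the same complex had 13.8 and 13.1 CPM in that library, against 8.33 and 8.19, and 10.7 and 10.6 CPM, in the other exposed lungs. Pcna had 78.0, 78.2 and 95.0 CPM, against 35.4, 69.8 and 63.5 CPM, so that every exposed lung was above every control (0.57 ± 0.25, unadjusted p = 0.0294, adjusted p = 0.998 by edgeR). It was the 1 gene of 36 wholly higher, beside 3.57% of all genes, and stood at 0.62 ± 0.28 without exposed replicate 2, at 0.33 without control replicate 1 and at 0.23 without the 8 libraries that had the fewest detected genes. Ccne1 was the 1 gene wholly lower, beside 4.09% of all genes, with 0, 0.96 and 0.122 CPM, against 2.23, 1.45 and 1.39 CPM (-2.23 ± 1.29, unadjusted p = 0.0991 by edgeR), and it stood at -4.23 ± 1.74 without exposed replicate 2.

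The other roles at 12 days had mixed values. In lungs exposed to 20 mg/mL, Cdk1 had 7.93, 9.99 and 5.87 CPM, against 0.81, 8.68 and 8.06 CPM in controls, where control replicate 1 alone was low. Plk1 had 9.32, 16.3 and 6.48 CPM, against 8.30, 15.0 and 7.09 CPM, and Cdc20 had 9.13, 19.0 and 18.7 CPM, against 8.71, 16.8 and 20.9 CPM. All of these overlapped. Kif11 had 5.55, 3.46 and 2.81 CPM, against 1.42, 5.79 and 2.92 CPM, and Stmn1 had 139.1, 92.9 and 123 CPM, against 148, 152 and 124 CPM. Mcm2 had 19.0, 26.9 and 28.0 CPM, against 12.1, 22.4 and 20.6 CPM, and Mcm5 had 0.793, 2.69 and 0.734 CPM, against 5.67, 2.17 and 1.67 CPM. Rrm2 had 7.93, 13.6 and 9.54 CPM, against 6.28, 8.50 and 5.42 CPM, and Tyms had 2.58, 4.03 and 1.96 CPM, against 0.81, 5.06 and 4.17 CPM. None of these groups stood wholly apart, and the role medians were between -0.95 for the G1/S cyclins and 0.41 for the mitotic cyclins and kinases. Without exposed replicate 2 the medians were -0.14 for the mitotic cyclins and kinases (3 of 8 positive), -0.03 for the checkpoint genes, -0.01 for the chromosome genes and -0.10 for the spindle genes (2 of 7). They were 0.17 for the replication fork (5 of 7), 0.26 for nucleotide supply and -1.98 for the G1/S cyclins. Ccnb1 then stood at -0.21 ± 0.49, Plk1 at -0.36 and Mcm5 at -2.02 ± 0.81, against 0.40, 0.07 and -1.17 with all libraries.

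At 10 mg/mL and 12 days, 22 of 36 genes had a positive log2 fold change (median 0.15), against 51.2% of all genes, and 0 passed the adjusted threshold by edgeR, DESeq2 or limma voom, beside 0%, 0.00876% and 0% of all genes. The median was -0.03 without control replicate 1 and 0.32 without control replicate 2. At an unadjusted p under 0.05 there were 0 of 36 by each tool, while edgeR had 1.03% of all genes higher and 1.06% lower. Mcm2 had 27.3, 21.4 and 21.7 CPM, against 12.1, 22.4 and 20.6 CPM in controls, with overlap (0.35 ± 0.26), and stood at 0.13 without control replicate 1. Aurka, the kinase of the spindle poles, had 41.5, 49.3 and 45.6 CPM, against 35.4, 38.2 and 40.7 CPM, and was the 1 gene of 36 wholly higher, beside 3.91% of all genes (0.25 ± 0.22), and 0 lay wholly lower, beside 4.55%. At 5 mg/mL and 12 days, 18 of 36 were positive (median 0.01), against 49.7% of all genes, and 0 passed the adjusted threshold by edgeR, DESeq2 or limma voom, beside 0%, 0.00876% and 0% of all genes. Mcm2 was the 1 gene higher at an unadjusted p under 0.05 (beside 0.604% of all genes by edgeR, with 0 of 36 lower, beside 0.648%) and the 1 wholly higher (beside 3.86%, with 0 wholly lower, beside 3.93%). It had 27.6, 29.4 and 24.1 CPM, against 12.1, 22.4 and 20.6 CPM (0.55 ± 0.26, unadjusted p = 0.0428, adjusted p = 1 by edgeR), and stood at 0.33 without control replicate 1. Aurka at 5 mg/mL had 46.9, 47.4 and 40.7 CPM, overlapping the controls by the smallest of margins (0.24 ± 0.22). These doses share the 12-day controls with 20 mg/mL, and control replicate 1 was the lowest of them for Mcm2 and Aurka.

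The slope over dose at 12 days was positive for 27 of 36 genes, against 51.6% of all genes, and 0 passed the adjusted threshold by edgeR, DESeq2 or limma voom, beside 0%, 0.0964% and 0.0263% of all genes. At an unadjusted p under 0.05 it was lower for 0 of 36, against 1.65% of all genes, and higher for 2 of 36, against 2.71%: Aurkb (0.16 ± 0.044, adjusted p = 0.621 by edgeR) and Pcna (0.032 ± 0.012, adjusted p = 0.991). Without replicate 2 of 20 mg/mL the slope of Aurkb was 0.059, and the median slope of the 36 genes was -0.0020, against 0.0075 with all libraries. The slope of Pcna was 0.022 without control replicate 1. The means of Pcna ran 56.3 ± 18.3, 53.0 ± 10.5, 64.4 ± 13.4 and 83.7 ± 9.80 CPM from control through 5, 10 and 20 mg/mL (SD, n = 3 each).

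The effect of 20 mg/mL at 12 days minus that at 6 days was positive for 12 of 36 genes, against 51.7% of all genes, with a median of -0.48. The spindle, checkpoint and chromosome genes had 0 of 15 positive, while the replication fork had 6 of 7 positive with a median of 0.36. The difference was not established for any single gene: 0 of 36 passed the adjusted threshold by edgeR, beside 0% of all genes, or by DESeq2 or limma voom, and at an unadjusted p under 0.05 there were 0 by edgeR (beside 3.82% of all genes), 1 by DESeq2 (beside 509 of 11426 genes) and 5 by limma voom (beside 678). Pcna stood at 0.69 ± 0.35 (unadjusted p = 0.0591) and Ccne1 at -3.44 ± 1.73 (unadjusted p = 0.0596), both with an adjusted p of 1 by edgeR. Pcna stood at 0.45 without replicate 1 of 12-day control and Ccne1 at -5.45 without replicate 2 of 20 mg/mL at 12 days. The median was -0.16 without replicate 3 of 20 mg/mL at 6 days. For 5 and 10 mg/mL the differences between days had medians of 0.08 and 0.10, with 0 called in each by edgeR (beside 0% of all genes), DESeq2 or limma voom; at an unadjusted p under 0.05 edgeR had 1 higher at 5 mg/mL, Mcm3 at 0.83 ± 0.39 (beside 1.03% of all genes), and 0 at 10 mg/mL (beside 1.86%).

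In control lungs the set differed little between the days. At 12 days 24 of 36 genes were higher than at 6 days, against 47.8% of all genes, with a median log2 fold change of 0.12. The median was 0.27 without 12-day replicate 1, -0.10 without 12-day replicate 2 and 0.34 without the 8 libraries that had the fewest detected genes. No gene passed the adjusted threshold by edgeR (beside 0% of all genes), DESeq2 or limma voom, and at an unadjusted p under 0.05 there were 0 by edgeR (beside 2.48%), 0 by DESeq2 (beside 338 of 11426 genes) and 2 by limma voom (beside 1571). Cenpf had 27.5, 57.3 and 58.8 CPM in 12-day controls, against 29.2, 27.0 and 30.8 CPM in 6-day controls, with replicate 1 of 12 days at the level of 6 days (0.73 ± 0.39). Mcm2 had 12.1, 22.4 and 20.6 CPM at 12 days, against 22.6, 26.5 and 27.1 CPM at 6 days, and was the 1 gene wholly lower, beside 4.21% of all genes (-0.46 ± 0.26), and stood at -0.24 without 12-day replicate 1. Bub1 was the 1 gene wholly higher, beside 4.71% (0.85 ± 0.55).

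Other genes of the pathway, 92 tested of 112 listed, were also counted by role at 20 mg/mL and 6 days. None passed the adjusted threshold in any comparison by edgeR, beside 0.00875% of all genes for the 6-day dose slope and 0% in the rest. Of 28 other mitosis genes 23 had a positive log2 fold change, against 49.6% of all genes, with a median of 0.54. At an unadjusted p under 0.05 by edgeR, 4 were higher, against 2.07% of all genes, and 0 lower, against 2%. Of 35 other replication genes 22 were positive, with a median of 0.07 and 0 at that p. The 12 G1 cyclins and kinases had a median of -0.10, the 7 inhibitors 0.04 and the 10 transcription factors -0.31. The 3 smallest p belonged to Cdkn2c, an inhibitor of the G1 kinases (23.6 ± 5.84 against 14.6 ± 2.87 CPM in controls), Ckap2, a spindle protein (8.84 ± 6.44 against 2.96 ± 1.62 CPM), and Kif2c, a kinetochore motor (2.89 ± 0.494 against 0.597 ± 0.551 CPM; SD, n = 3 each). Kif2c had 2.54 to 3.46 CPM in the exposed lungs and 0 to 1.09 CPM in controls, without overlap (2.25 ± 0.89, unadjusted p = 0.0189 by edgeR). Of all genes, 4.07% lay wholly higher in this comparison. Without exposed replicate 3 the other mitosis genes had a median of 0.16, with 18 of 29 positive.

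At 20 mg/mL and 12 days the other mitosis genes had a median of 0.11 (20 of 28 positive) and the other replication genes 0.02 (20 of 35), against 51.4% of all genes positive. Without exposed replicate 2 these were -0.27 (10 of 28) and -0.07 (13 of 35). The smallest p was that of Cks1b, a cofactor of the cyclin-dependent kinases, with 8.68 to 14.8 CPM in exposed lungs, against 3.04 to 6.51 CPM in controls, without overlap (1.14 ± 0.39, unadjusted p = 0.00773, adjusted p = 0.998 by edgeR). Of all genes, 3.57% lay wholly higher at this dose and day. Next to Cks1b, Cenpa, the centromeric histone, had 0.992 to 2.88 CPM, against 0.202 to 0.973 CPM. Cdkn1a, the p21 inhibitor induced by DNA damage signalling, had 55.5 to 69.7 CPM, against 27.3 to 63.7 CPM, with overlap (0.60 ± 0.30, unadjusted p = 0.0576 by edgeR).

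A few values carry a limit of counting. Aurka, Plk1, Kif11, Kif20a, Nusap1 and Rrm2 each overlap another gene that has a row of its own (Fam210b, Ern2, Ide, Cdc23, Ndufaf1 and Cys1) in the RefSeq gene models of GRCr8, and the strand setting of the counting is not given in the sources used here. Reads of such neighbours may be shared, so these values, among them the non-overlapping Kif20a and Nusap1, are uncertain. Ccne1 had 209 reads and Mcm5 309 reads in all 24 libraries, and Ccne1 was at 0 in 4 of them.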

How the data were processed

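Lung RNA of 24 rat samples in 8 groups was counted. The authors deposited raw read counts per gene symbol, 1 table per sample, made per the submitters' processing notes with Bowtie2 and bedtools on the rn6 build; neither versions nor the strand setting is stated there. Each table has 17048 lines; 167 with a repeated symbol (0.982% of counts) were left out. Total counts were 4795667 to 11109713 per library, which limits precision for the least abundant genes.

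Counts were tested with edgeR 4.0.16 (R 4.3.3): TMM factors (0.805 to 1.12), its default filter on low counts (11426 genes), 8 group means in 1 quasi-likelihood model with 16 residual degrees of freedom, and Benjamini-Hochberg adjustment over all genes at 0.05. CPM use the TMM-scaled totals, and log2 CPM a prior count of 2. DESeq2 1.42.0 and limma 3.58.1 (voom) were alternatives, with other scalings, no filter, a replicate block, left-out libraries and the number of detected genes. The fit was tested on simulated counts. Correlations used 100000 permutations in numpy 2.4.6. No column of the tables belonged to an unlisted sample.

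The members and lists were chosen with earlier results of these data known. Genes named are 15 members fixed by role (Mki67, Ccnb1, Cdk1, Plk1, Cdc20, Top2a, Birc5, Stmn1, Kif11, Mcm2, Mcm5, Pcna, Rrm2, Tyms and Ccne1), any past the adjusted threshold, the 2 with the smallest p in each comparison and, of other pathway genes at 20 mg/mL, the 3 with the smallest p on each day. Further members are named where a count is spelled out or groups did not overlap, and Cenpf, Bub1b, Prc1 and the promoters shown were chosen after values were seen.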

Additional observations from a re-analysis of the deposited data

How the results depend on the processing

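No gene of the 36 passed the adjusted threshold under any alternative in the 10 comparisons recomputed under all of them; the differences between days of 5 and 10 mg/mL were run by edgeR, DESeq2 and limma voom alone, with 0 called. Single-gene differences were not established at this depth and n. At 20 mg/mL and 6 days the count higher at an unadjusted p under 0.05 was 9; it was 17 when the 8 libraries detecting the fewest genes were dropped, 1 without the 3 libraries with the most heart muscle counts (an alternative chosen after seeing the data), and 1 to 14 with single libraries left out (1 without exposed replicate 3, 14 without exposed replicate 2, 4 without control replicate 2). The median log2 fold change of 0.61 was 0.97 and 0.21 under those 2 alternatives, and 0.21 to 0.85 with single libraries left out. For the dose slope at 6 days, leaving out the 3 heart muscle libraries gave a count of 1 (12 in full) and a median of 0.011 (0.034 in full), and single libraries gave 1 to 17 and 0.011 to 0.046. At 20 mg/mL and 12 days the count higher, 2 in full, was 1 by limma voom, with only the groups compared, and without either set of libraries, and 1 to 2 with single libraries left out; the positive count of 29 was 19 by limma voom, 17 without the heart muscle libraries and 17 to 31 with single libraries left out. The median difference between days of -0.48 was -0.84 without the 8 libraries and -0.75 to -0.16 with single libraries left out. Correlations with Mki67 passed for 10 genes within groups and for 10 without the 2 farthest libraries, against 16. The count within groups may be too high, since its permutations did not allow for the subtracted group means. The cause of these shifts was not tested. The replicate numbers were not taken as pairs: deviations of same-numbered libraries correlated at -0.18 to 0.59 at 6 days (median 0.17, against -0.10 for different numbers; 10 of 18 pairs over 0.1, against 10 of 36) and -0.16 to 0.20 at 12 days (median 0.02, against -0.02), and 7 and 3 of 12 libraries correlated best with their own number. With the replicate block 7 genes were higher at 20 mg/mL and 6 days with a median of 0.53, and 11 had a higher slope. The 20 single-gene results recomputed under the alternatives kept their direction and their side of the threshold in all 356 values. Other single-gene values turned: at 20 mg/mL and 6 days without exposed replicate 3, Cdc20 stood at -0.64, Mcm2 at -0.24 and Rrm2 at -0.19, against 0.49, 0.06 and 0.34 in full.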
